A study of Homo sapiens with 4 samples.

Results

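The small nucleolar RNA (snoRNA) host genes of K562 cells were examined in poly(A)+ RNA-seq libraries of cells before and after hemin treatment. K562 is a human erythroleukemia cell line, and hemin is an iron porphyrin that drives these cells toward the erythroid state. The members were chosen by name, as every gene of the SNHG series together with GAS5, ZFAS1, DANCR and EPB41L4A-AS1. The rule found 32 genes of the 61498 in the tables, and 27 of them passed the filter on low counts that left 14458 genes for testing. The untreated group comprised 2 libraries, and the hemin group comprised 2 libraries of cells kept in 50 µM hemin for 108 h. All 4 libraries came from the same line, grown in the same serum-supplemented RPMI medium. The untreated libraries held 7801824 and 7455447 expected counts and the hemin libraries 7513843 and 8241534. Since the labels do not say whether the replicates were separate cultures, the p-values measure only the spread between these libraries. In bulk RNA a change in RNA per cell cannot be told apart from a change in the share of cells that hold it.

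A snoRNA host gene carries 1 or more snoRNAs in its introns. After splicing, the debranched intron is trimmed to the snoRNA, while the joined exons leave as a separate RNA that in many SNHG genes has no long reading frame and is short-lived because translation hands it to nonsense-mediated decay. Box C/D snoRNAs guide ribose methylation and box H/ACA snoRNAs guide pseudouridylation, mainly of ribosomal RNA, and scaRNAs do the same for spliceosomal RNAs in Cajal bodies. Many host genes start transcription at a terminal oligopyrimidine (TOP) tract, the same kind of start that ribosomal protein genes use. Poly(A)+ RNA reports the spliced exons, not the snoRNAs.

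The kind of snoRNA within the span of each host was read from GENCODE 44, on the strand of the host, and from the RefSeq gene list. RefSeq entries were placed by position without regard to strand. The boxes that define each kind can be seen in the sequences. The snoRNA of DANCR and SNORA71A of SNHG17, hosts that were higher in hemin, and both snoRNAs of SNHG32, which was lower, are shown in the direction of transcription from the GENCODE 44 annotation on GRCh38. Capitals mark the ACA box near the end of the H/ACA snoRNAs, and the C box (TGATGA) and the D box (CTGA) near the ends of the C/D snoRNAs.
SNORA26, in DANCR, chr4:52713249-52713370, plus strand: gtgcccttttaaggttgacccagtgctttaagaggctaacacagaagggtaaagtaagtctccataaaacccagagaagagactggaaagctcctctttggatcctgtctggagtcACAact
SNORA71A, in SNHG17, chr20:38427309-38427442, minus strand: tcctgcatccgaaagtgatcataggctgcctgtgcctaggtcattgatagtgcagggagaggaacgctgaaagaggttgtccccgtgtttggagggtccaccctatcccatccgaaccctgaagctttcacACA
SNORD48, in SNHG32, chr6:31835263-31835326, plus strand: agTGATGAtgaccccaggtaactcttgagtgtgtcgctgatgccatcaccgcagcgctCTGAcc
SNORD52, in SNHG32, chr6:31837076-31837142, plus strand: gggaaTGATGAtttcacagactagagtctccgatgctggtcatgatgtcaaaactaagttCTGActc
Read on the snoRNA strand, an ACA within the last 8 bases stood in 22 of the 26 annotated SNORA genes nested in the members other than SNHG14, and in 2 of their 26 SNORD genes. In the whole annotation the shares were 82.2% of SNORA and 6.1% of SNORD genes. TGATGA within the first 15 bases together with CTGA within the last 12 stood in 14 of the 26 SNORD genes and in none of the 26 SNORA genes, against 58.5% and 0.0% in the whole annotation. Boxes with other letters or outside these windows were not counted, so these letters are a description and not a test of the class.

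The members differed far more in level than they differed between conditions. In TPM, the transcript share scaled by length, their mean level in untreated cells ran from 1294 for SNHG29 down to values near 0, with 11 members above 100 TPM, 12 between 10 and 100 TPM, and 9 under 10 TPM. SNHG29, which carries SNORD49A, SNORD49B and SNORD65, had 1288 and 1299 TPM in the untreated libraries and 1282 and 1249 TPM in the hemin libraries. GAS5, first known for its RNA building up in growth-arrested cells, followed with 587 and 591 TPM untreated and 560 and 503 TPM in hemin. SNHG5 had 502 and 557 TPM untreated and 613 and 504 TPM in hemin, so its groups overlapped. Of the 31 pairs of neighbours in this order, 10 had untreated ranges that overlapped, among them ZFAS1 and SNHG6, SNHG8 and EPB41L4A-AS1, and EPB41L4A-AS1 and SNHG19.

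**Figure D1:**
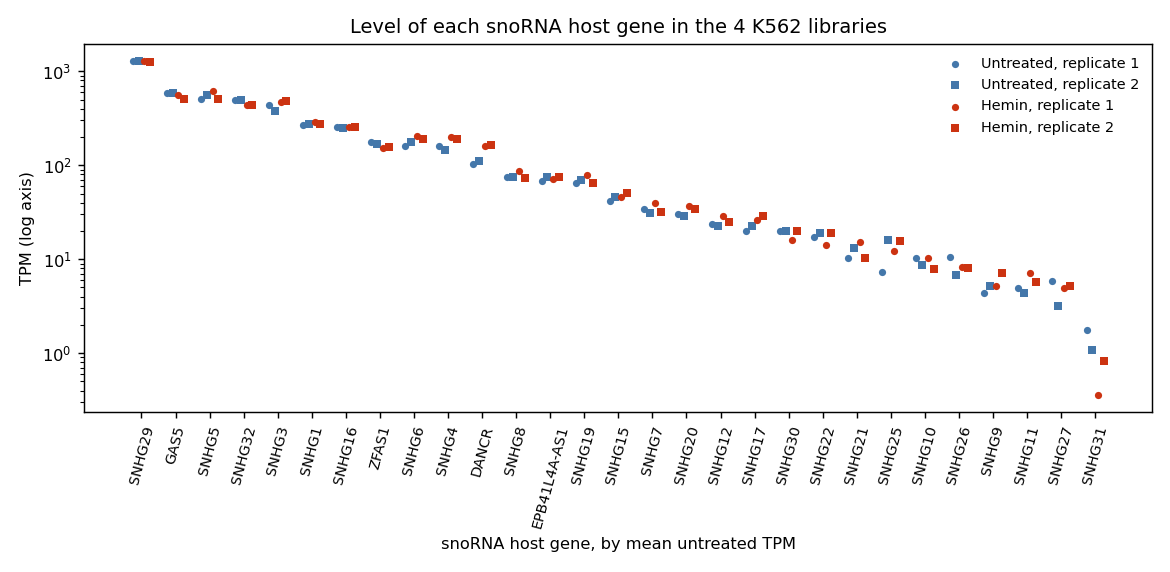
Level of 29 snoRNA host genes in TPM (log axis) in each library, ordered by mean untreated TPM; blue points are the untreated libraries, red points the hemin libraries, and circles and squares replicates 1 and 2. SNHG29 stands at the top in all 4 libraries, and the levels of DANCR and SNHG4 in hemin lie above both untreated points; SNHG14, SNHG18 and SNHG28, with under 1 TPM, are not drawn.

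The members together took 4879 and 4926 TPM in the untreated libraries and 5132 and 4901 TPM in the hemin libraries, or 0.488%, 0.493%, 0.513% and 0.49% of all TPM. The groups overlapped in this sum. The 5 highest members held 67.7% and 67.6% of it untreated and 65.7% and 64.9% in hemin. The sum is thus set mainly by SNHG29, GAS5, SNHG5, SNHG32 and SNHG3.

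Against untreated cells, 6 of the 27 tested members were higher in hemin and 1 was lower at the threshold of 0.05 on the edgeR quasi-likelihood p, adjusted by the Benjamini-Hochberg method over all tested genes. These are 22.2% and 3.7% of the tested members, beside 7.00% of all tested genes called higher and 7.14% called lower. The median log2 fold change of the tested members was 0.13 and that of all tested genes was -0.005, and 21 of the 27 members had a positive value, beside 49.1% of all tested genes. In normalised CPM (counts scaled to a common library size with TMM factors), both hemin libraries lay above both untreated libraries for 14 members and below them for 3, beside 28.1% and 29.3% of all tested genes, and for 10 members the groups overlapped. With library size as the only scaling, 4 members were higher and 1 lower, while over all genes 729 were higher and 1358 lower in place of 1012 and 1033. DESeq2 called 3 members higher (SNHG4, DANCR and SNHG3) and 1 lower (SNHG32), beside 589 higher and 505 lower over all genes. With limma on log2(TPM + 1) DANCR alone was called, beside 14 higher and 33 lower over all genes.

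**Figure D2:**
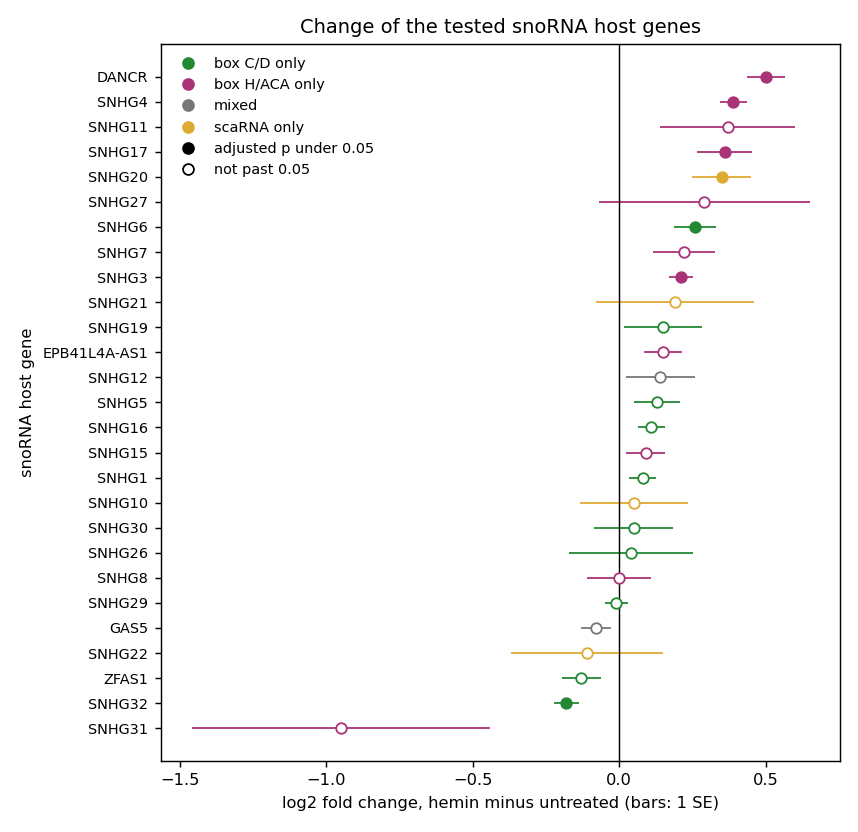
The log2 fold change (hemin minus untreated) of the 27 tested snoRNA host genes, with bars of 1 SE; filled points passed the edgeR threshold of 0.05, and colours give the kind of snoRNA within the gene. The filled points are DANCR, SNHG4, SNHG17, SNHG20, SNHG6 and SNHG3 on the right and SNHG32 on the left.

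DANCR, named for its part in holding progenitor cells back from differentiation, had the highest fold change of the members. It carries SNORA26 and lies on chr4:52712325-52723623, plus strand, as ENSG00000226950. Its normalised CPM were 53.5 and 54.2 in the untreated libraries and 73.6 and 78.1 in the hemin libraries, so that both treated values lay well above both untreated ones. The log2 fold change was 0.50 (SE 0.065, adjusted p = 0.00168, edgeR), or 41.0% higher. The mean length RSEM estimated for its transcripts was 775 and 726 bases untreated and 680 and 691 bases in hemin. Its TPM, which depend on that length, were 104 and 111 against 160 and 165. DANCR stayed past the threshold in all 16 alternative settings, with log2 fold changes between 0.45 and 0.60. No neighbour that shares exons with it held more than 4 counts in a library.

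SNHG4, which carries SNORA74A and SNORA74D, was 31.2% higher. Its normalised CPM were 181 and 171 untreated and 233 and 229 in hemin, and the log2 fold change was 0.39 (SE 0.047, adjusted p = 0.00107, edgeR). SNHG4 shares exons on its own strand with MATR3, a gene for a nuclear matrix RNA-binding protein, and with SIL1 on the other strand. The MATR3 entry that overlaps it held 954 and 909 counts untreated and 1126 and 1313 in hemin, a log2 fold change of 0.38 (SE 0.052, adjusted p = 0.00211, edgeR). SIL1 moved the other way, at -0.48 (SE 0.127, adjusted p = 0.0347, edgeR). With the MATR3 counts added to SNHG4 the log2 fold change was 0.39, with an adjusted p of 0.000662 in edgeR. Since MATR3 and SNHG4 moved alike, such a sum follows from adding them and cannot tell their reads apart. How the shared reads were divided was not tested. The MATR3 entry had a posterior SD of 109 to 153 counts, whereas the largest posterior SD of SNHG4 was 0.546% of its count.

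SNHG3 carries SNORA73A and SNORA73B, also called U17, which act in the cleavage of ribosomal RNA precursors. Its normalised CPM were 351 and 358 untreated and 419 and 402 in hemin, and the groups did not overlap. Its log2 fold change was 0.21 (SE 0.041, adjusted p = 0.0108, edgeR), or 15.8% higher. SNHG3 lies within the span of RCC1, the gene for the nucleotide exchange factor of Ran, and shares exons with it. RCC1 held 658 and 684 counts untreated and 808 and 791 in hemin, a log2 fold change of 0.25 (SE 0.07, adjusted p = 0.047, edgeR). Without untreated replicate 1 the adjusted p of SNHG3 in edgeR was 0.0645.

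SNHG17, host of SNORA71A to SNORA71D, had 21.5 and 22.4 normalised CPM untreated and 28.5 and 28.0 in hemin. Its log2 fold change was 0.36 (SE 0.093, adjusted p = 0.0312, edgeR). SNHG6, host of SNORD87, was the only called higher member with a box C/D snoRNA. It had 51.6 and 56.9 normalised CPM untreated and 66.2 and 63.7 in hemin, a log2 fold change of 0.26 (SE 0.072, adjusted p = 0.0411, edgeR). Of the 16 alternatives, 9 kept the call of SNHG17 and 7 that of SNHG6. Leaving out any 1 library gave log2 fold changes of 0.33 to 0.39 for SNHG17 and 0.19 to 0.33 for SNHG6, none with an adjusted p under 0.05 in edgeR.

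SNHG20, host of SCARNA16, had 25.8 and 26.2 normalised CPM untreated and 35.7 and 30.6 in hemin, with a log2 fold change of 0.35 (SE 0.101, adjusted p = 0.0484, edgeR). It shares exons on the same strand with SEC14L1, which held 563 and 549 counts untreated and 490 and 535 in hemin, a log2 fold change of -0.13 (SE 0.06, adjusted p = 0.20, edgeR). With the SEC14L1 counts added, the log2 fold change of SNHG20 was 0.02 with an adjusted p of 0.863 in edgeR. SEC14L1 has the larger counts and the opposite sign, so a sum near 0 follows from adding them. How the shared reads were divided between SNHG20 and SEC14L1 was not tested. The largest posterior SD of SNHG20 was 2.19% of its count. Without hemin replicate 1 it was 0.24 with an adjusted p of 0.235, and without either untreated library the adjusted p was 0.17 and 0.138 (edgeR).

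SNHG32, host of SNORD48 and SNORD52 in the major histocompatibility region, was the member called lower. Its normalised CPM were 255 and 264 untreated and 232 and 226 in hemin. This gave a log2 fold change of -0.18 (SE 0.043, adjusted p = 0.025, edgeR), a change of -11.7%. The neighbour that shares its exons, ENSG00000285565, had 239 and 174 counts untreated and 198 in each hemin library. That entry had a posterior SD of 44.6 to 49.3 counts, and how the shared reads were divided was not tested. With the counts of ENSG00000285565 added, the log2 fold change of SNHG32 was -0.17 (adjusted p = 0.0273, edgeR). Without untreated replicate 1, untreated replicate 2 or hemin replicate 2 the adjusted p was 0.0563, 0.109 and 0.096 in edgeR, with the log2 fold change between -0.20 and -0.15.

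**Figure D3:**
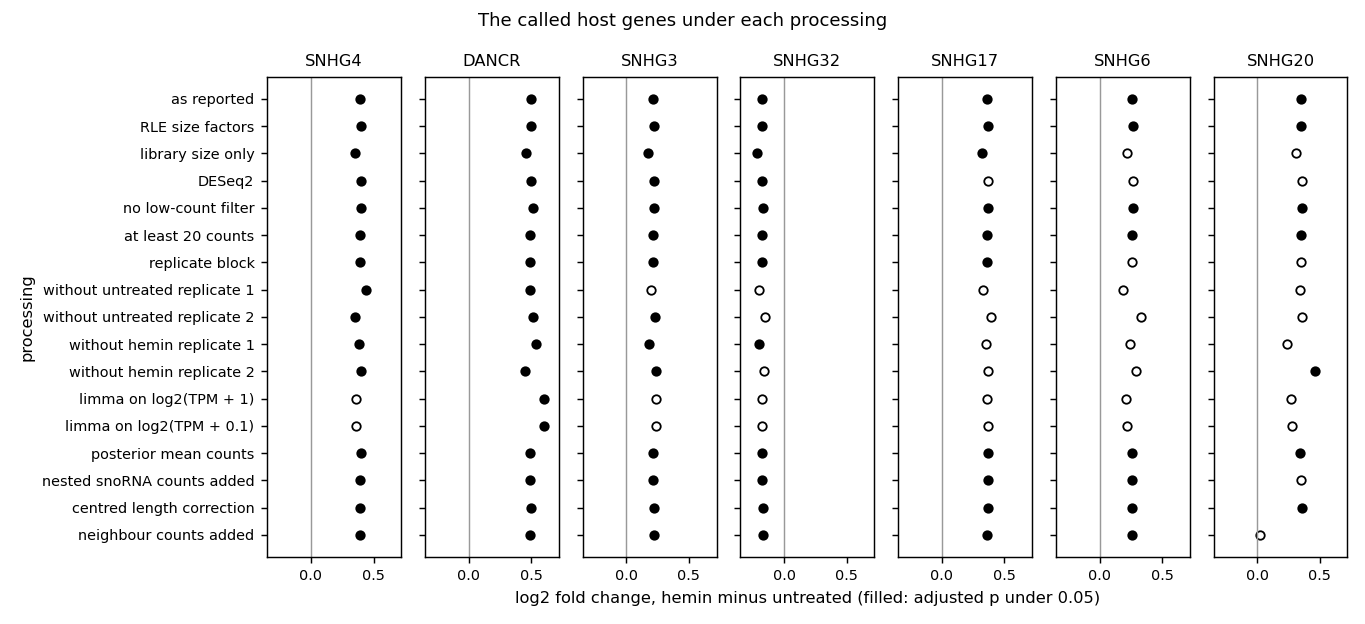
The log2 fold change (hemin minus untreated) of the 7 called host genes, 1 panel each, as reported and under the 16 alternatives; filled points have an adjusted p under 0.05 in that setting. Only DANCR is filled in every row, SNHG4 is open in both limma rows, and SNHG20 falls to 0.02 when the counts of its neighbour are added.

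The other 20 tested members did not pass the threshold. Their log2 fold changes lay between -0.95 and 0.37 and their adjusted p between 0.169 and 0.988 in edgeR. Several of the most abundant hosts are among them. SNHG29 stood at -0.01 (SE 0.040), GAS5 at -0.08 (SE 0.051), SNHG5 at 0.13 (SE 0.078) and SNHG1, the U22 host gene, at 0.08 (SE 0.047). SNHG16 stood at 0.11 (SE 0.047), ZFAS1, which lies head to head with ZNFX1, at -0.13 (SE 0.067), SNHG8 at 0.00 (SE 0.109) and EPB41L4A-AS1 at 0.15 (SE 0.066). SNHG29, at 5627 to 5977 counts, is measured closely, whereas SNHG8, at 172 to 184 counts, is measured less closely. The hemin libraries of ZFAS1 (57.3 and 59.9 normalised CPM) lay below its untreated libraries (66.0 and 62.4), and the hemin libraries of SNHG16 (278 and 279) lay above its untreated ones (249 and 268). Neither difference passed the test, with adjusted p of 0.231 and 0.169 in edgeR.

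The extreme values among the 20 belonged to scarce RNAs. SNHG31 had 15 and 12 counts untreated and 4 and 10 in hemin, a log2 fold change of -0.95 with an SE of 0.51, and SNHG11 had 37 and 42 counts untreated and 54 and 49 in hemin, 0.37 with an SE of 0.229. In SNHG22, SNHG21, SNHG10, SNHG26 and SNHG30, with 29 to 110 counts in a library, as in SNHG29 and SNHG8, the sign of the fold change turned with at least 1 alternative. The remaining members SNHG7, SNHG12, SNHG15, SNHG19 and SNHG27 had log2 fold changes between 0.09 and 0.29.

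Of the 5 members that were too low to test, each had at least 1 count in some library. SNHG9 had 7 and 9 counts untreated and 8 and 14 in hemin, and SNHG25 had 7 in each untreated library and 7 and 10 in hemin. SNHG14, the long host of the SNORD115 and SNORD116 clusters in the imprinted Prader-Willi region, had 3 and 4 counts untreated and 4 and 9 in hemin. SNHG18 had 2 and 1 counts and SNHG28 had 1 and 0 counts in the untreated libraries, and neither had a count in hemin. Where no read was counted, as many as 3 counts remain possible, which is 0.364 to 0.402 CPM in these libraries, so that no difference was detectable at this depth for SNHG18 and SNHG28. These limits cover counting error only.

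The snoRNAs themselves were almost out of reach of these libraries. The 145 annotated snoRNA genes nested in the members, of which 84 lie in SNHG14, together held 46.8 and 53.1 expected counts untreated and 52.3 and 56.0 in hemin, or 0.205% to 0.237% of the counts of their hosts. SNORA73B, in SNHG3, held the most, with 18 and 17 counts untreated and 22 and 17 in hemin. The levels above are thus levels of host RNA, and say nothing of the mature snoRNAs.

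Grouped by the snoRNAs they carry, the tested members fell into 11 hosts of box H/ACA snoRNAs alone, 10 hosts of box C/D snoRNAs alone, 4 hosts of scaRNAs and 2 mixed hosts. Of the 11 H/ACA hosts 4 were called higher (DANCR, SNHG3, SNHG4 and SNHG17), and the median log2 fold change of the 11 was 0.22. Of the 10 C/D hosts 1 was called higher and 1 lower, with a median of 0.06. Over all tested genes 7.00% were called higher and 7.14% lower. The scaRNA hosts had a median of 0.12 and the mixed hosts, GAS5 and SNHG12, of 0.03. The summed normalised CPM of the H/ACA hosts was 769 and 770 untreated and 935 and 911 in hemin, whereas that of the C/D hosts was 1780 and 1871 untreated and 1877 and 1812 in hemin and overlapped. This grouping was noticed after the values had been seen, so it is given with no test. Over the 17 settings the median of the H/ACA hosts ran from 0.18 to 0.34 and that of the C/D hosts from -0.01 to 0.09. Among protein-coding snoRNA hosts the medians were close, at 0.06 over 73 H/ACA hosts and 0.04 over 62 C/D hosts. Of the summed CPM of the H/ACA hosts, SNHG3 held 351 and 358 untreated and 419 and 402 in hemin. SNHG4 held 181 and 171 untreated and 233 and 229 in hemin. Both share exons with protein-coding genes that were higher too, and the part of these neighbours in the medians and the sum was not tested.

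The start of transcription was read from RefSeq promoter sequences on GRCh38.p14, which held an entry for 28 of the 32 members. The windows below run from 10 bases before the annotated start through the first 20 transcribed bases, in the direction of transcription. They are shown for the called members with an entry and for 4 abundant members that did not pass the test. Capitals mark a pyrimidine run, defined here as C followed by at least 4 bases that are each C or T, beginning between 5 bases before the start and 10 bases after it.
DANCR, chr4:52712384-52712413, plus strand: tgcgcgccccgCCCTTgcccagagtcttcc
SNHG4, chr5:139274091-139274120, plus strand: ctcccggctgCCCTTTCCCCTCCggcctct
SNHG17, chr20:38435309-38435338, minus strand: gtgtggcctcagtCCTTCgccgtccctcgc
SNHG3, chr1:28505933-28505962, plus strand: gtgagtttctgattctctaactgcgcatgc
SNHG20, chr17:77088633-77088662, plus strand: ttccggccggaagttgctgacggagctact
SNHG32, chr6:31834906-31834935, plus strand: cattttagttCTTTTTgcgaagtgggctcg
ZFAS1, chr20:49278632-49278661, plus strand: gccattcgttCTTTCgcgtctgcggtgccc
SNHG5, chr6:85678714-85678743, minus strand: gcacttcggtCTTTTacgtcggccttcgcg
SNHG1, chr11:62855866-62855895, minus strand: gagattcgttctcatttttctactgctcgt
SNHG16, chr17:76557754-76557783, plus strand: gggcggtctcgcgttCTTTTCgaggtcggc
Such a run stood on the gene's strand in 14 of the 28 members with an entry, beside 25.9% of all 35116 promoters, and in 21.9% of all promoters on the other strand. It was present in DANCR and SNHG4, which were higher, and equally in SNHG32, which was lower, and in ZFAS1 and SNHG5, which were not called. GAS5, SNHG1, SNHG3 and SNHG29 had no such run. Whether the run, or its absence, tells the presence of a TOP tract was not tested. Among tested members the median log2 fold change was 0.14 for the 13 with a run and 0.06 for the 12 without, and among protein-coding hosts it was 0.03 for 71 with a run and 0.07 for 110 without. The definition was chosen after the member sequences had been read, and the difference between these medians was not tested.

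The RNAs of several genes for snoRNA-binding proteins were higher in hemin. Of the 4 genes for core proteins of box C/D particles, 3 passed the test (NOP58, NOP56 and SNU13). Of the 4 for H/ACA particles 2 passed (DKC1 and GAR1). Over all tested genes 7.00% were called higher. The list medians were 0.28 and 0.19 beside -0.005 over all tested genes. DESeq2 kept the calls of the 3 C/D genes and of DKC1, whereas GAR1 had an adjusted p of 0.101. NOP58, a scaffold of the C/D particle, held 947 and 924 counts untreated and 1286 and 1375 in hemin, a log2 fold change of 0.50 (SE 0.047, adjusted p = 0.000378, edgeR). Its partner NOP56 stood at 0.34 (SE 0.049, adjusted p = 0.00265, edgeR), and SNU13, which binds the kink-turn of the snoRNA, at 0.22 (SE 0.048, adjusted p = 0.0173, edgeR). FBL, the methyltransferase fibrillarin, stood at 0.09 (SE 0.04, adjusted p = 0.181, edgeR). DKC1, the pseudouridine synthase dyskerin, stood at 0.22 (SE 0.042, adjusted p = 0.00907, edgeR), and GAR1 at 0.38 (SE 0.097, adjusted p = 0.0302, edgeR). NHP2 at 0.15 and NOP10 at 0.02 did not pass, with adjusted p of 0.126 and 0.886 in edgeR. The 7 C/D assembly factors lay between -0.05 and 0.22 with adjusted p from 0.241 to 0.955 in edgeR, and the H/ACA assembly factors NAF1 and SHQ1 lay at 0.26 and 0.30 with adjusted p of 0.0882 and 0.255.

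Nonsense-mediated decay is the pathway that removes many spliced SNHG RNAs. Of 18 genes for its factors, 7 had higher RNA in edgeR, beside 7.00% of all tested genes. DESeq2 called 5 of the 18 higher, and 589 of all 14458 genes. The median log2 fold change of the 18 was 0.18, beside -0.005 over all tested genes. The calls lost in DESeq2 were those of MAGOH and SMG9 (adjusted p = 0.0543 and 0.241). The 5 with the smallest p were the exon junction proteins EIF4A3 (0.41, adjusted p = 0.0036, edgeR), CASC3 (0.34, adjusted p = 0.00484, edgeR) and MAGOH (0.37, adjusted p = 0.0202, edgeR), with the kinase SMG1 (0.19, adjusted p = 0.0252, edgeR) and UPF2 (0.27, adjusted p = 0.0269, edgeR). UPF1, the helicase of the pathway, stood at 0.16 with an adjusted p of 0.0591 in edgeR. Of 8 genes that control translation of TOP RNAs, LARP1, which binds the TOP cap, was higher at 0.26 (adjusted p = 0.00349, edgeR) and RPTOR, a subunit of the mTOR complex, at 0.22 (adjusted p = 0.0355, edgeR). DESeq2 kept LARP1, whereas RPTOR had an adjusted p of 0.128. The median of these 8 was 0.12, beside -0.005 over all tested genes, of which 7.00% were called higher.

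**Figure D4:**
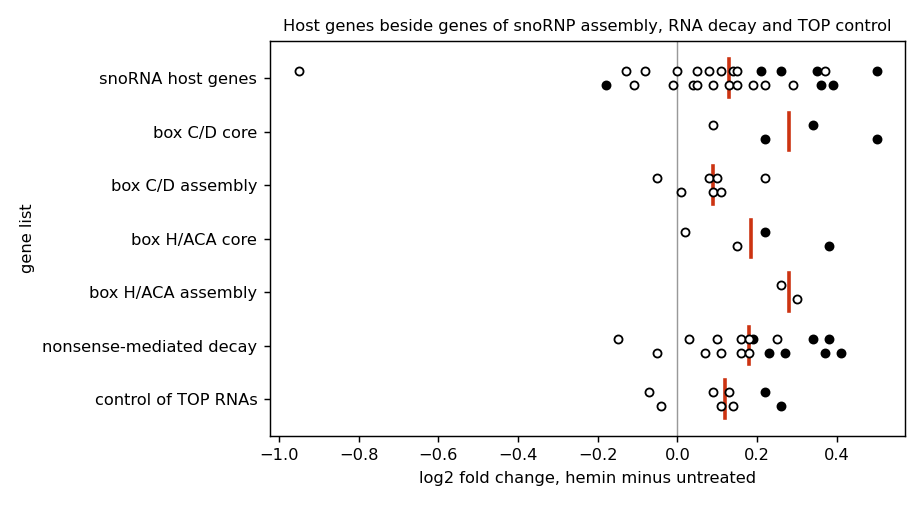
The log2 fold change (hemin minus untreated) of the tested snoRNA host genes and of 6 gene lists; each point is a gene, filled points have an adjusted p under 0.05 in edgeR, and red bars are list medians. All bars lie to the right of 0, between 0.09 for the C/D assembly factors and 0.28 for the C/D core proteins and H/ACA assembly factors.

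Other genes with nested snoRNAs gave a background for the members. Of 218 tested protein-coding hosts, 43 were higher and 10 lower in edgeR, or 19.7% and 4.59%. Beside these stand 7.00% and 7.14% of all tested genes, and 22.2% and 3.7% of the tested members. In DESeq2, 34 of these hosts were higher and 4 lower, beside 589 and 505 of all 14458 genes. For 53 of the 218, no nested snoRNA was named SNORD, SNORA or SCARNA. Of these 53, 8 were higher and 5 lower in edgeR, with a median log2 fold change of -0.02. Their values ran from -3.81 (IL2RA) to 1.09 (ENSG00000285283). The median log2 fold change of the protein-coding hosts was 0.05. The median of the members was 0.13, as given above, and the difference was not tested. Among these hosts HSPA8, the constitutive HSC70 chaperone and host of SNORD14 genes, had 11109 and 10913 counts untreated and 15412 and 17300 in hemin, a log2 fold change of 0.56 (SE 0.038, adjusted p = 7.48e-05, edgeR). IL2RA, the alpha chain of the interleukin-2 receptor, had 35 and 38 counts untreated and 1 and 4 in hemin (-3.81, SE 0.496, adjusted p = 0.00162, edgeR; none given by DESeq2). PPP1R14C stood at -0.67 and the read-through gene TIMM23B-AGAP6 at -0.95 (adjusted p = 0.00349 and 0.00156, edgeR). ENSG00000285283 stood at 1.09 (adjusted p = 0.0277 in edgeR and 0.073 in DESeq2). The read-through gene ATP6V1G2-DDX39B had 0 and 1 counts untreated and 18 and 46 in hemin, with a posterior SD of 12.5 to 15.3 counts in each library. Its reads and those of DDX39B cannot be told apart where the genes share exons.

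Of 1733 tested lncRNAs without a nested snoRNA, 28 were higher and 58 lower in edgeR, or 1.62% and 3.35% beside 7.00% and 7.14% of all tested genes, and 10 were higher and 16 lower in DESeq2. Their median log2 fold change was -0.01. In untreated replicate 1, all 17584 lncRNAs of this kind held 271691 counts, beside 519078 for all 275 protein-coding hosts. Scarce RNAs are harder to call, and the called shares were not matched for count. The widest called values among the tested lncRNAs of this kind were ENSG00000275496 (1.40), ENSG00000279669 (1.24) and ENSG00000261342 (1.12) on the higher side. On the lower side they were ENSG00000272884 (-7.63), LINC01630 (-4.16) and ENSG00000278769 (-3.27). In DESeq2, ENSG00000275496 and ENSG00000261342 did not pass (adjusted p = 0.14 and 0.102), and LINC01630, ENSG00000278769 and ENSG00000272884 received no adjusted p. ENSG00000272884 fell from 19 and 30 counts to none in either hemin library. The 13 tested lncRNA hosts outside the SNHG series had log2 fold changes from -0.66 to 0.54 and a median of 0.03. For these 13 edgeR and DESeq2 both gave 0 calls, while 3 had an unadjusted p under 0.05 in edgeR, all with lower values.

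Markers of the cells moved with the condition as well. All 11 erythroid markers were expressed, with summed counts of 23661 and 23747 untreated and 28145 and 29330 in hemin. HBZ, HBE1, LMO2 and TFRC were higher in edgeR and in DESeq2. NFE2 was lower in edgeR (adjusted p = 0.0185) but not past the threshold in DESeq2 (adjusted p = 0.0561). HBZ, the embryonic zeta globin, stood at 0.70 and HBE1, the epsilon globin, at 0.41 (adjusted p = 0.000151 and 0.000445, edgeR), and their part in the values of the host genes was not tested. Of 10 markers of other cell types, CD3E, MS4A1 and CDH1 were at 0 in every library. The summed counts of the 10 ran from 307 to 345 across the libraries, of which EPCAM took 288 to 319.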

How the data were processed

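Poly(A)+ RNA from K562 cultures was read with 50-base reads. Per the labels and the methods, the authors trimmed reads with Trimmomatic 0.39 and estimated expression with RSEM 1.3.1 and STAR 2.7.5c on GRCh38 with an Ensembl annotation. The deposited expected counts are RSEM's read estimates per gene, not normalised, with multi-mapping reads divided between genes, and the posterior SD describes that division. The deposited TPM are scaled by effective length. The deposited FPKM tables were not used. No strand setting is given in the sources used here, so overlapping antisense genes cannot be told apart.

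Expected counts were rounded, filtered by filterByExpr, scaled with TMM factors and fitted in edgeR 4.0.16 (R 4.3.3) with a single term for hemin, using its quasi-likelihood test, Benjamini-Hochberg adjustment over 14458 genes and a threshold of 0.05. The SE is the size of the log2 fold change divided by the square root of F. The fit was tested on simulated data. A count of 0 was taken to allow 3 counts. The common dispersion was 0.001179. Coordinates and overlaps came from GENCODE 44 (99.84% of genes and all 32 members matched), promoters from RefSeq, and snoRNA names from both.

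The settings tried in turn were DESeq2 1.42.0 on the genes kept by filterByExpr, RLE factors or plain library size for scaling, no filter or at least 20 counts, the replicate number as a block, omission of each library, limma 3.58.1 (with a mean-variance trend) on log2 TPM with pseudocounts of 1 and 0.1, posterior means in place of counts, nested snoRNA counts added, a loess length correction (span 0.4) and, chosen after the data were seen, counts of exon-sharing neighbours added. The members and lists were chosen with earlier results of these data known. All members are accounted for. Called members are given in full, the 8 most abundant of the others and those whose sign changed by name, all core particle proteins, the called genes of the other hand-written lists (at most 5) and the 3 highest and 3 lowest called genes of the annotation lists.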

Additional observations from a re-analysis of the deposited data

How the results depend on the processing

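Against 6 members called higher and 1 lower, DESeq2 called 3 higher and limma called 1 higher and 0 lower with either pseudocount, while 6 higher and 1 lower had an unadjusted p under 0.05 in limma. Leaving out each library gave 2 to 5 higher and 0 to 1 lower in edgeR, with 1 to 2 lower at an unadjusted p under 0.05 in those fits. The number was 2 (DANCR and SNHG4) without untreated replicate 1, and 3 (those with SNHG3) without untreated replicate 2 or without hemin replicate 1. Without hemin replicate 2, SNHG5 was called. A lone library was assumed to vary like the others. Every other alternative kept both counts within 1.5 times. Same-numbered libraries did not deviate together (correlation 0.005), so the numbers were not taken to pair them; with the replicate block 4 members were higher (DANCR, SNHG17, SNHG3 and SNHG4) and 1 lower. Over all genes, calls were 1012 higher and 1033 lower as reported, 589 and 505 in DESeq2, 14 and 33 or 15 and 34 in limma, 729 and 1358 with library size only, and 451 to 856 higher and 487 to 862 lower with a library left out.

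Of 430 member values, 376 kept sign and side, 36 lost and 1 gained the threshold, and 17 changed sign, none of them called. SNHG8 was -0.03 with library size only. SNHG30 was -0.15 in both limma fits, SNHG10 -0.06 and -0.07, and SNHG26 -0.05 in both. With a library left out, SNHG29 ran from -0.04 to 0.01, SNHG8 from -0.08 to 0.09, SNHG22 from -0.37 to 0.11, SNHG21 from -0.09 to 0.43, SNHG10 from -0.08 to 0.20 and SNHG26 from -0.18 to 0.31. The cause was not tested. With 2 libraries a group and 7455447 to 8241534 counts in each, members with at most 167 counts in every library had an SE of 0.118 or more.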
